A study of Mus musculus with 24 samples.

Results

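Solute carriers (gene symbols that start with Slc and a family number) were measured on bead arrays of mouse bone marrow cells, and the 123 solute carrier genes with a detected probe are described here. A probe was taken where its annotated symbol begins with Slc and a digit and where the detection value, 1 minus the detection p, was above 0.99 on all 3 arrays of at least 1 of the 8 groups. Slc4a1, Slc4a1ap, Slc11a1, Slc17a8, Slc25a37, Slc25a38 and Slc40a1 were left out. The rule gave 161 probes of the 638 solute carrier probes on the array, for 123 of 349 solute carrier genes, among 45281 probes in all. The detection values chose the members, so which genes are members is a description and carries no test. Of the 123 genes, 16 passed through 1 group alone, and a comparison in which that group is high follows in part from the rule. Among those named below, Slc7a7 and Slc32a1 passed through D2 Gr1+ cells, Slc7a11 through B6 Gr1+ cells, and Slc1a5 through D2 Ter119+ cells. Slc30a9 and Slc28a2b passed through B6 Ter119+ cells, and Slc22a18, Slc35d3 and Slc9b2 through B6 LSK cells. A comparison also follows in part from the rule where the high cell type is the only one through which a member passed, in both strains. Slc27a4, Slc31a2 and Slc35d2 passed so in Gr1+ cells, and Slc30a1 and Slc30a10 in Ter119+ cells. Slc45a3 did so in progenitors and Slc16a9 in LSK cells. Slc15a3, Slc6a12 and Slc37a2 passed through Gr1+ and Ter119+ cells alone, so their rises over progenitors also follow in part from the rule. Slc22a4 passed through B6 Ter119+ cells and B6 progenitors alone, and Slc19a2 through B6 Ter119+ cells, B6 progenitors and B6 LSK cells alone.

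The study profiled Gr1+ cells, labelled granulocytes, Ter119+ cells, labelled erythrocytes, progenitors, labelled committed and L-S-K+ (the Kit+ fraction without Sca-1), and LSK cells, labelled stem cells and multilineage cells. Each cell type was sorted from the bone marrow of DBA2 mice (D2) and of C57Bl/6 mice (B6), which are both inbred strains, and each of the 8 groups has 3 arrays. No age, sex, treatment or genetic change is given in the labels, and no slide or scan date. Whether the 3 arrays of a group are from different animals is not given in the labels. The p-values therefore measure the spread between these arrays, which may be technical.

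Solute carriers are membrane proteins that move amino acids, sugars, metals, vitamins, nucleotides and ions across the plasma membrane and the membranes of organelles, either down a gradient or coupled to another ion. The family number groups proteins by relatedness, and most families share a class of substrate. In the marrow they are best known in maturing red cells, which import iron and glycine to make heme, and in granulocytes, which take up glucose for glycolysis.

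Levels are normalised log2 intensities, and a level of one probe cannot be set against that of another. Between 12.6% of the probes, on D2 LSK replicate 2, and 27.4% were detected per array, and the arrays of a group correlated at 0.924 to 0.99. D2 LSK replicate 2, D2 progenitor replicate 1 and B6 Ter119+ replicate 2 each correlated least with the other arrays of their own group. Of the 123 member genes, 67 had their lowest LSK level on D2 LSK replicate 2, 58 had their lowest progenitor level on D2 progenitor replicate 1, and 37 had their lowest Ter119+ level on B6 Ter119+ replicate 2. Each labelled cell type had the highest mean of its own marker list, although the red cell gene Epb42 and the granulocyte gene Mmp8 were detected on no array. The Ter119+ arrays also carried granulocyte markers, at a list mean of 9.65 to 10.2, where progenitors had 7.22 to 9.47 and Gr1+ cells 11.9 to 12.2. Of these 9 markers, 7 were detected on all Ter119+ arrays and Cxcr2 and Mmp8 on none. The granulocyte list had 8.08 to 8.41 in B6 LSK cells, against 7.22 to 7.40 in B6 progenitors. In D2 it had 8.05 to 9.40 in LSK cells, against 7.81 to 9.47 in progenitors. Its part in the differences between progenitors and LSK cells was not tested. The B cell list of the Ter119+ arrays had a mean of 7.44 to 7.89, against 4.85 to 5.23 in progenitors. Of its markers, 5 of 6 were detected on all Ter119+ arrays and Pax5 on none. The list of mast cells, basophils and eosinophils had 7.14 to 7.74 in Ter119+ cells, against 5.05 to 6.51 in progenitors. The monocyte and macrophage list had a mean of 5.29 to 5.66 in Gr1+ cells and 5.52 to 5.98 in Ter119+ cells, against 4.41 to 4.50 in progenitors. Of its 8 markers, Csf1r, C1qa, C1qb, Vcam1 and Mrc1 were detected on all 6 Ter119+ arrays and Ccr2 on none. The list of T and NK cells had 6.10 to 6.39 in Gr1+ cells and 5.25 to 6.03 in Ter119+ cells, against 5.09 to 5.57 in progenitors, and that of megakaryocytes 4.41 to 4.80 and 4.64 to 4.98, against 5.01 to 5.83 in progenitors.

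Just inside the detection threshold lay the probes of Slc35a5 at 0.99038, Slc2a8 and Slc30a9 at 0.99252, and Slc25a36 and Slc38a1 at 0.99359. Just outside it lay Slc25a27 at 0.98932 and Slc26a6 at 0.98718, which are no members, and further probes of Slc44a2, Slc38a2 and Slc25a24 at 0.98718, whose genes are members through another probe. Of 50 families on the array, 40 had a member and 10 had none. The largest of the families without a member was Slc26, sulfate and chloride exchangers, with 10 genes on the array. By class, 50% of the mitochondrial carriers (22 of 44), 53.6% of the nucleotide sugar transporters (15 of 28) and 51.7% of the metal transporters (15 of 29) were members. The share was 28.8% for amino acid transporters (17 of 59), 26.1% for transporters of organic ions and peptides (12 of 46), and 20.4% for transporters of ions (10 of 49). Among well-known genes that are no members, Slc16a1 and Slc16a3, the lactate transporters, and Slc25a4, an ADP/ATP carrier, were detected on no array. Slc3a2, the partner subunit of several amino acid exchangers, was detected on 1 array of 24 by its only probe.

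On all 6 arrays of a cell type, 73 member genes were detected in Gr1+ cells, 76 in Ter119+ cells, 65 in progenitors and 40 in LSK cells, and 35 genes were detected on all arrays of all 4. The highest mean lay in Gr1+ cells for 42 genes, in Ter119+ cells for 24, in progenitors for 34 and in LSK cells for 23. The map of all members shows these blocks by class.

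**Figure D1:**
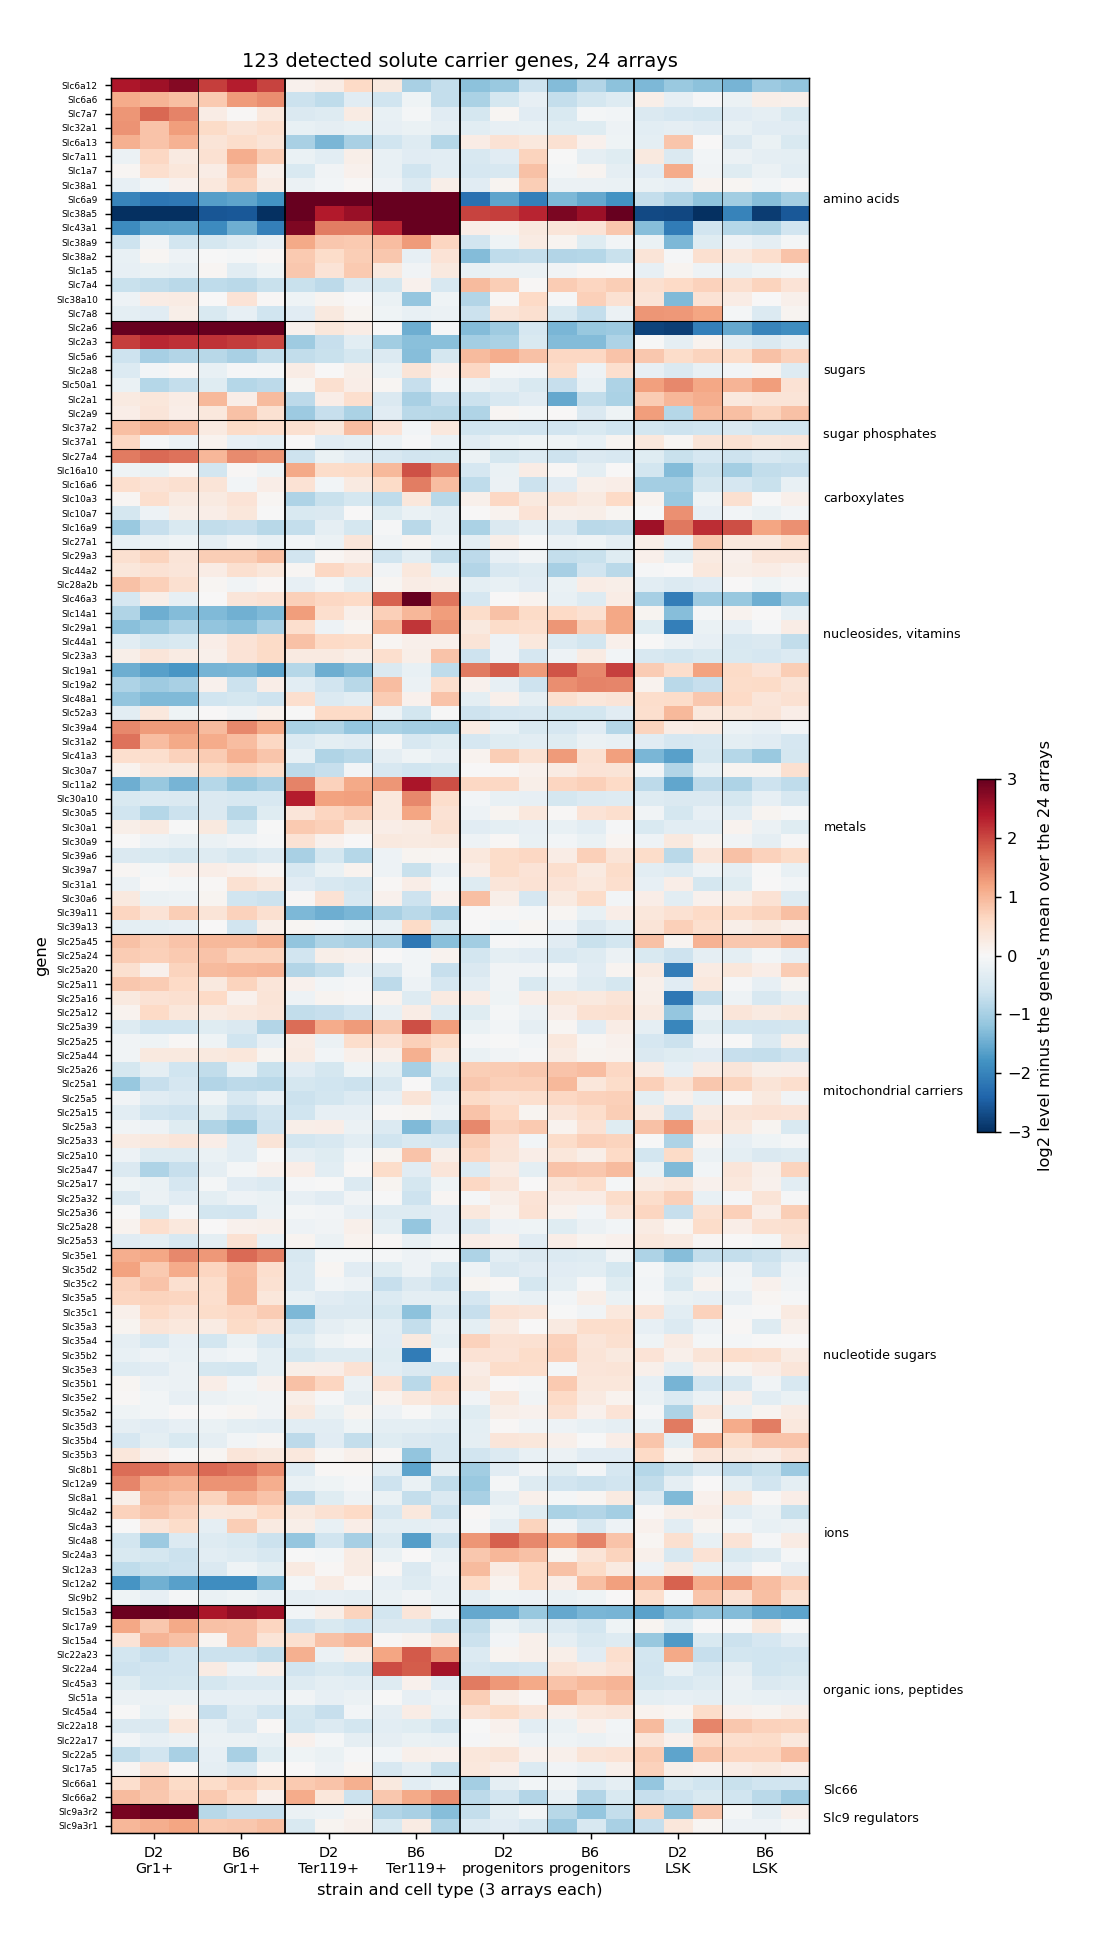
Levels of the 123 member genes (rows, grouped by class) on the 24 arrays (columns, 3 per group), each as log2 level minus the gene's mean over all arrays, with the colour scale ending at -3 and 3. Slc6a12, Slc2a6 and Slc15a3 are high in both strains of Gr1+ cells, Slc6a9 and Slc43a1 in Ter119+ cells, Slc38a5 in Ter119+ cells and progenitors, and D2 LSK replicate 2 is low for many genes.

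Between Gr1+ cells and progenitors, 80 of the 123 members were called at an adjusted p under 0.05 in limma, 43 higher and 37 lower in Gr1+ cells. That is 65.0% of the members, where 68.7% of all 7925 genes tested were called (29.4% higher and 39.3% lower). Between Ter119+ cells and progenitors, 68 were called, 31 higher and 37 lower in Ter119+ cells, which is 55.3% against a background of 56.4% (24% higher and 32.3% lower). Both comparisons use the same progenitor arrays. Between progenitors and LSK cells, 66 were called, 34 higher and 32 lower in progenitors, or 53.7% against a background of 42.8% (21.6% higher and 21.2% lower). Between Gr1+ and Ter119+ cells, 75 were called, 44 higher and 31 lower in Gr1+ cells, or 61.0% against 58.7% (27.2% higher and 31.5% lower). The median log2 difference over the members was -0.02 for Gr1+ cells against progenitors, -0.06 for Ter119+ cells against progenitors and 0.09 for progenitors against LSK cells, where all genes had medians of -0.13, -0.09 and 0.03. All genes tested passed the same detection filter as the members. How the arrays are scaled moved the split of the calls. With each array scaled to its median, the counts were 20 higher and 26 lower for Gr1+ cells against progenitors, 16 and 10 for Ter119+ cells against progenitors, and 8 and 4 for progenitors against LSK cells. With the 75th percentile they were 32 higher and 31 lower, 24 and 20, and 19 and 9. The shares of all genes given here are the background of the counts by class below, and no class was tested against them.

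**Figure D2:**
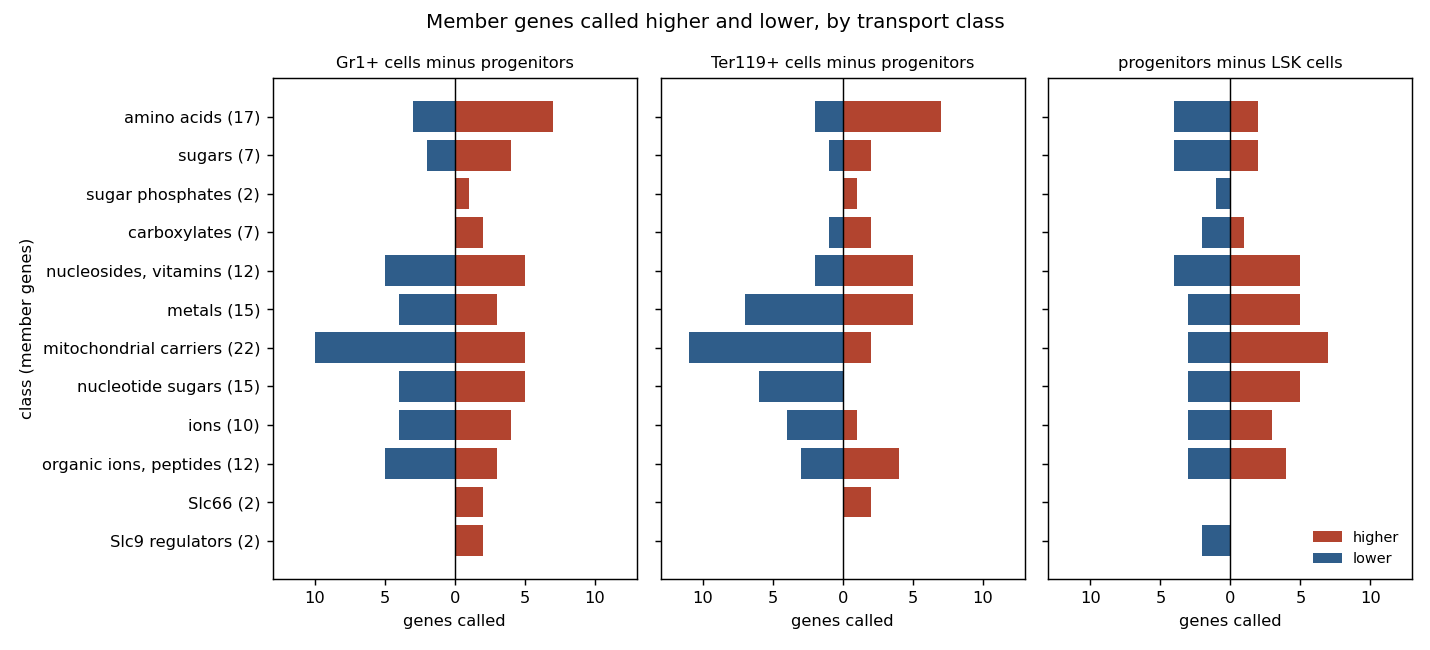
Number of member genes called higher (right of 0) and lower (left of 0) at an adjusted p under 0.05 in each transport class, for 3 comparisons of cell types with 6 arrays on each side; the number of member genes in a class stands in brackets. The mitochondrial carriers have 10 lower calls in Gr1+ cells and 11 in Ter119+ cells, each against progenitors, and the amino acid transporters 7 higher calls in each.

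The amino acid transporters held the 2 members with the largest differences between cell types. Of 17, 7 rose and 3 fell in Gr1+ cells and 7 rose and 2 fell in Ter119+ cells, each against progenitors. In progenitors against LSK cells 2 rose and 4 fell. Median scaling changed these counts to 4 and 3, 5 and 2, and 2 and 0. Slc6a9, the glycine transporter GlyT1, had levels of 11.02 to 12.05 (median 11.36) in Ter119+ cells, against 4.54 to 5.43 (median 5.08) in progenitors. The groups lay far apart: the log2 difference was 6.42 ± 0.16 (SE, n = 6 arrays each), an 85.9-fold higher level in Ter119+ cells with a limma adjusted p of 3.36e-19. Gr1+ cells had 4.61 to 5.20 (median 4.88) and LSK cells 5.50 to 6.04 (median 5.74), so the lowest Ter119+ array exceeded every array of the other cell types. Slc6a9 was lower in progenitors than in LSK cells by a smaller step, -0.72 ± 0.16, a call that was lost with either other scaling of the arrays (adjusted p of 0.31 with the median and 0.1 with the 75th percentile).

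Slc38a5 (SNAT5), a sodium-coupled transporter of glutamine, glycine and other neutral amino acids, was high in both progenitors and Ter119+ cells. Its levels were 5.52 to 6.03 (median 5.57) in Gr1+ cells, 10.95 to 12.20 (median 11.83) in Ter119+ cells, 10.59 to 11.56 (median 10.99) in progenitors and 5.12 to 6.57 (median 5.85) in LSK cells. Progenitors and LSK cells did not overlap, at 5.17 ± 0.18 or 36.1-fold higher in progenitors (limma adjusted p = 6.19e-16). Gr1+ cells lay 40.1-fold below progenitors (-5.32 ± 0.18, adjusted p = 3.75e-17), the largest fall of any member in this comparison. The Ter119+ arrays overlapped the progenitor arrays, with a log2 difference of 0.65 ± 0.18 and an adjusted p of 0.00402 that became 0.28 and 0.12 with these scalings.

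Slc43a1 (LAT3) carries branched-chain and other large neutral amino acids. It had levels of 4.38 to 4.95 (median 4.68) in Gr1+ cells, 7.96 to 9.79 (median 8.96) in Ter119+ cells, 6.53 to 7.23 (median 6.74) in progenitors and 4.33 to 5.85 (median 5.55) in LSK cells. Ter119+ cells lay above progenitors without overlap (2.06 ± 0.23, 4.18-fold, limma adjusted p = 8.31e-08), and progenitors above LSK cells (1.40 ± 0.23, adjusted p = 3.77e-05). In Gr1+ cells no array detected it, and the level there was at least 3.51-fold lower than in progenitors. A second probe of Slc43a1 gave a log2 difference of 2.23 for Ter119+ cells against progenitors, and it too was detected on no Gr1+ array, at least 1.52-fold below progenitors. That probe passed through Ter119+ cells and B6 progenitors alone, so its Gr1+ bound follows in part from the detection rule.

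Within family 6, Slc6a12 and Slc6a6 were high in Gr1+ cells, unlike Slc6a9. Slc6a12, the betaine and GABA transporter BGT1, had 7.72 to 8.44 (median 8.08) in Gr1+ cells, 4.71 to 6.28 (median 5.86) in Ter119+ cells, 4.37 to 5.06 (median 4.51) in progenitors and 4.30 to 4.59 (median 4.48) in LSK cells. No progenitor or LSK array detected it, and the Gr1+ level was at least 8.87-fold that of progenitors (limma adjusted p = 1.85e-14). Slc6a6, the taurine transporter, had 9.48 to 10.09 (median 9.76) in Gr1+ cells against 7.75 to 8.45 (median 8.17) in progenitors, 3.13-fold higher without overlap (adjusted p = 6.29e-10). Slc6a13, a further GABA transporter, had 5.15 to 6.15 (median 5.61) in Ter119+ cells against 6.40 to 6.97 (median 6.80) in progenitors and fell by 2.14-fold (-1.10 ± 0.16, adjusted p = 2.32e-06), so that within this family Slc6a9 and Slc6a12 rose and Slc6a13 fell in Ter119+ cells.

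The other amino acid transporters changed less. Slc38a9, a lysosomal transporter that signals arginine to mTORC1, was 2.1-fold higher in Ter119+ cells than in progenitors (limma adjusted p = 2.06e-05), and its other probes gave 0.30 and 0.73. Slc32a1, the vesicular transporter of GABA and glycine, was detected on 5 of 6 Gr1+ arrays and on no array of the other cell types. Its Gr1+ level was at least 1.38-fold that of progenitors. Slc7a4, a relative of the cationic amino acid transporters, fell in Gr1+ cells, where no array detected it, to a level at least 1.66-fold below progenitors. Slc7a11, the cystine and glutamate exchanger, was 1.55-fold higher in Gr1+ cells (adjusted p = 0.0039), a call not kept with median scaling (0.053) or in the D2 arrays alone (0.47). Slc1a5, the glutamine transporter ASCT2, was detected on 5 of 6 Ter119+ arrays and on none of the other 18, at levels near the detection limit.

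Slc38a2 (SNAT2), a neutral amino acid transporter, was read differently by its probes. The brighter probe had 8.53 to 9.57 (median 9.42) in Ter119+ cells, 7.46 to 8.11 (median 7.96) in progenitors and 8.75 to 9.64 (median 9.21) in LSK cells. It gave a log2 difference of 1.37 ± 0.16 for Ter119+ cells against progenitors and -1.29 ± 0.16 for progenitors against LSK cells. The other probe gave -0.20 and -0.11, and neither of these was called. Between Gr1+ and Ter119+ cells the probes were called in opposite directions, at -0.56 and 0.40. No direction is drawn from this gene.

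The promoters of the members highest in Ter119+ and in Gr1+ cells were read for AGATAA and TGATAA. These are forms of the GATA factor motif, which GATA1 binds in red cell genes. Windows from 250 bases before to 50 bases after each start were taken from the RefSeq table of build GRCm38.p6, which holds 135 windows of 98 member genes. They were searched for AGATAA and TGATAA on both strands, and other forms of the motif were not searched. Slc6a9 has 3 starts, at chr4:117835008-117835307, chr4:117849100-117849399 and chr4:117855297-117855596 on the plus strand. Slc43a1 lies at chr2:84840073-84840372 on the plus strand and Slc46a3, a lysosomal transporter described further on, at chr5:147894766-147895065 on the minus strand. Slc2a6 lies at chr2:27027949-27028248 on the minus strand, and 1 of the 5 listed starts of Slc6a12 at chr6:121342324-121342623 on the plus strand. Slc15a3 has no entry. The windows follow 5′ to 3′ in lower case, with each motif match in capitals.
Slc6a9, start 1 of 3: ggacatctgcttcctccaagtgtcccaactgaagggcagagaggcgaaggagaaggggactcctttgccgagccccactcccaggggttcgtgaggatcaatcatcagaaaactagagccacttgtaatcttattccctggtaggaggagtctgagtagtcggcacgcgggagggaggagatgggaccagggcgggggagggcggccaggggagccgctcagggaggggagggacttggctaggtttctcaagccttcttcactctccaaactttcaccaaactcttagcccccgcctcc
Slc6a9, start 2 of 3: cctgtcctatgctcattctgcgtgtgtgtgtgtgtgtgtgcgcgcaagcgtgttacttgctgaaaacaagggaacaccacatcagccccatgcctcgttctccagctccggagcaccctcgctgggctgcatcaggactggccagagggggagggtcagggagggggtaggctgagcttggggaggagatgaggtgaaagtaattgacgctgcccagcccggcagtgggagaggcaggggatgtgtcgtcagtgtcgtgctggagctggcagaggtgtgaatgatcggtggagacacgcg
Slc6a9, start 3 of 3: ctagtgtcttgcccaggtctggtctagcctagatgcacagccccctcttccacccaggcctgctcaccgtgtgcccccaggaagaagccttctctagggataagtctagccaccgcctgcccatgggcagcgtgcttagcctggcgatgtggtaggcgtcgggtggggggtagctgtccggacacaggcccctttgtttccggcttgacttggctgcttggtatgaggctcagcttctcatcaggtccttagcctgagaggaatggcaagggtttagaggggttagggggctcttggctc
Slc43a1: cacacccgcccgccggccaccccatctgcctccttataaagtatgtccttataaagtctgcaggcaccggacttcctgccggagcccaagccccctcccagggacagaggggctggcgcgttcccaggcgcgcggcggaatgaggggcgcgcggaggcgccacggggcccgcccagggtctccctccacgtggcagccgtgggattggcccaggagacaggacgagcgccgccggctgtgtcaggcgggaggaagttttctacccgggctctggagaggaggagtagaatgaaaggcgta
Slc46a3: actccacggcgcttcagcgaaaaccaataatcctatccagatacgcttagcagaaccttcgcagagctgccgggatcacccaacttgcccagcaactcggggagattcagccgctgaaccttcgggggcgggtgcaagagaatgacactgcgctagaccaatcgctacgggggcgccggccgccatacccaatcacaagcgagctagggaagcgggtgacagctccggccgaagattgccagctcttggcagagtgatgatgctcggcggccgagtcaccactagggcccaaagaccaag
Slc2a6: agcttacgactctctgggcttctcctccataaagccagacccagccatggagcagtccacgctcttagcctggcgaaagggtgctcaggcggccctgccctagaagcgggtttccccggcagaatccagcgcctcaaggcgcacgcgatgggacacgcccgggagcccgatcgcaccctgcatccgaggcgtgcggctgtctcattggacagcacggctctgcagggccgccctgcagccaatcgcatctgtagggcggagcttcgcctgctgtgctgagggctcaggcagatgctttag
Slc6a12: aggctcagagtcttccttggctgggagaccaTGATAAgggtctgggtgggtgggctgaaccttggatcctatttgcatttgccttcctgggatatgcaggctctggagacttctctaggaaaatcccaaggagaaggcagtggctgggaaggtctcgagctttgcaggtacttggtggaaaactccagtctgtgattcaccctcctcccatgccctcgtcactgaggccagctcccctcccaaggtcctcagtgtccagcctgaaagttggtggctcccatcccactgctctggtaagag
Neither motif occurs in the windows of Slc6a9, Slc43a1, Slc46a3 or Slc2a6. The Slc6a12 window, printed because it is the first of that gene's 3 windows with a match, holds TGATAA once. A match was present in 20 of the 135 member windows (14.8%) and in 6115 of 32851 windows of all genes (18.6%). A match is not a binding site, and a window without one says only that these letters are not in it.

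Of the 7 sugar transporters and their relatives, 4 rose and 2 fell in Gr1+ cells against progenitors. In Ter119+ cells against progenitors 2 rose and 1 fell, and in progenitors against LSK cells 2 rose and 4 fell. Median scaling changed these counts to 2 and 1, 0 and 1, and 0 and 0. Slc2a6 (GLUT6), a glucose transporter family member of intracellular membranes, had 10.66 to 11.06 (median 10.98) in Gr1+ cells, 6.10 to 7.89 (median 7.61) in Ter119+ cells, 6.18 to 7.06 (median 6.44) in progenitors and 4.74 to 6.02 (median 5.54) in LSK cells. Gr1+ cells stood above all other arrays, 22.1-fold over progenitors (4.47 ± 0.20, limma adjusted p = 3.33e-15), the largest rise of any member in this comparison. Slc2a3 (GLUT3), a high-affinity glucose transporter, had 11.18 to 11.43 (median 11.32) in Gr1+ cells, against 7.87 to 8.73 (median 8.19) in progenitors. The groups did not overlap, and Gr1+ cells were 8.75-fold higher (3.13 ± 0.13, adjusted p = 1.0e-15). Ter119+ cells, at 7.92 to 8.86 (median 8.13), overlapped the progenitors.

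Slc2a1 (GLUT1), the glucose transporter of most tissues, had 8.09 to 8.86 (median 8.19) in Gr1+ cells, 6.91 to 8.39 (median 7.33) in Ter119+ cells, 6.37 to 7.56 (median 7.21) in progenitors and 8.20 to 8.97 (median 8.47) in LSK cells. It was 2.69-fold lower in progenitors than in LSK cells (-1.43 ± 0.19, limma adjusted p = 1.31e-06) and 2.41-fold higher in Gr1+ cells than in progenitors. With median scaling neither call was kept (adjusted p of 0.3 and 0.098). Slc50a1 (SWEET1), a sugar uniporter, was 2.92-fold lower in progenitors than in LSK cells, at 7.13 to 7.88 (median 7.69) against 8.49 to 9.50 (median 9.25) (adjusted p = 1.06e-07, 0.21 with the median and 0.076 with the 75th percentile scaling). Slc5a6, which belongs to the sodium-glucose family by sequence but carries biotin and pantothenate, fell in both Gr1+ cells (3.22-fold, adjusted p = 7.48e-11) and Ter119+ cells (2.88-fold, adjusted p = 1.23e-09) against the same progenitors. Slc37a2, a sugar phosphate exchanger of the endoplasmic reticulum, was detected on all Gr1+ and Ter119+ arrays and on no progenitor or LSK array. Its level exceeded that of progenitors by at least 1.56-fold in Gr1+ cells and at least 1.25-fold in Ter119+ cells.

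**Figure D3:**
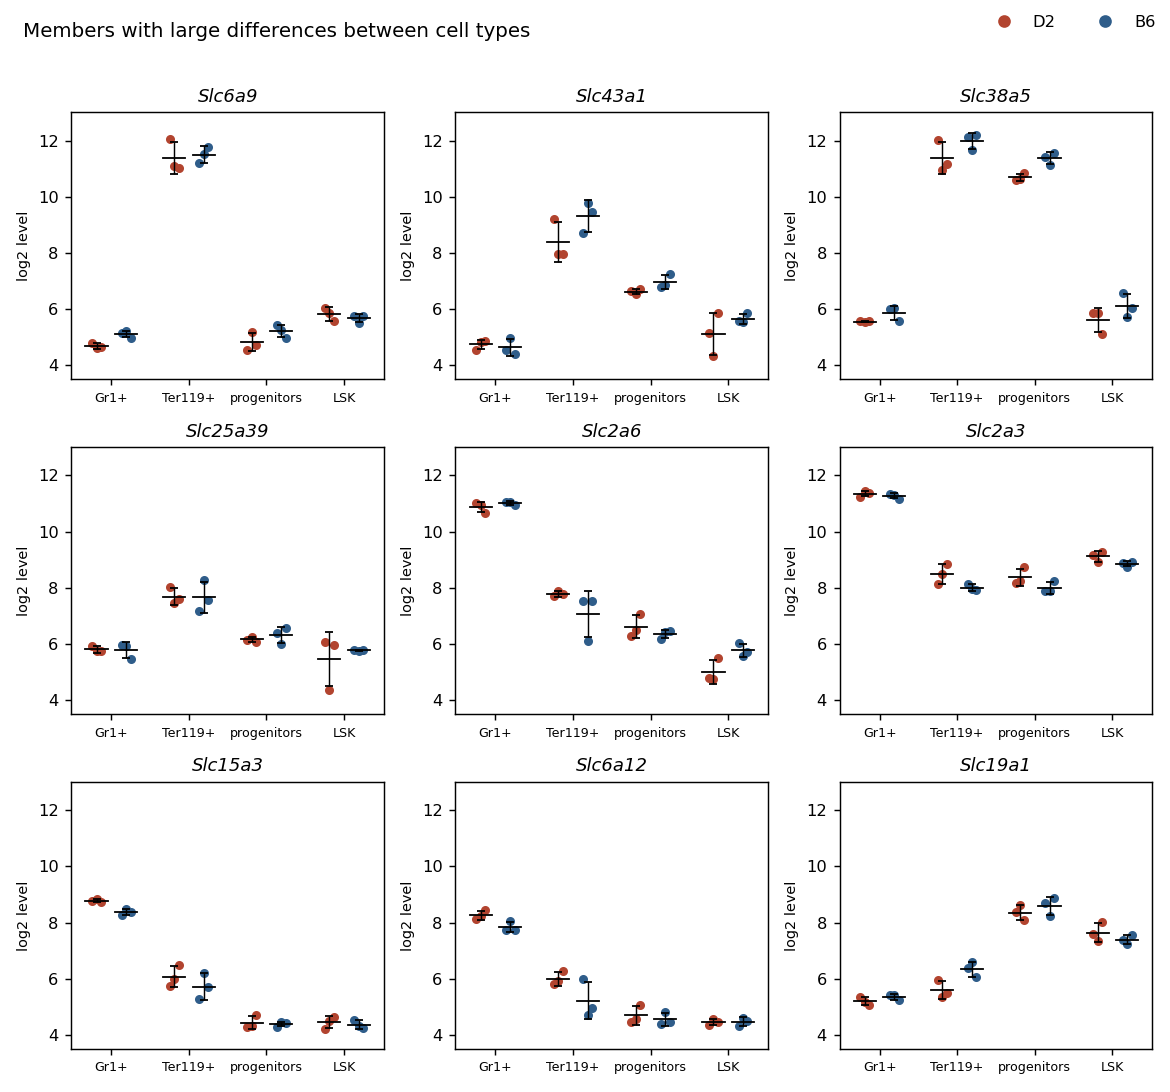
Log2 levels of 9 member genes on each array, with D2 in red and B6 in blue, from left to right Gr1+ cells, Ter119+ cells, progenitors and LSK cells; bars are the mean and SD of 3 arrays. Slc6a9 and Slc43a1 are highest in Ter119+ cells, Slc2a6, Slc2a3, Slc15a3 and Slc6a12 in Gr1+ cells, and Slc19a1 in progenitors.

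Slc15a3 (PHT2), a lysosomal transporter of histidine and small peptides, was detected on all Gr1+ and Ter119+ arrays and on none of the 12 progenitor and LSK arrays. Its levels were 8.26 to 8.85 (median 8.61) in Gr1+ cells, 5.26 to 6.48 (median 5.87) in Ter119+ cells, 4.28 to 4.69 (median 4.37) in progenitors and 4.20 to 4.63 (median 4.40) in LSK cells. Gr1+ cells were at least 12.8-fold above progenitors (limma adjusted p = 6.26e-17), and Ter119+ cells at least 2.00-fold above them. Its relative Slc15a4 was 1.84-fold higher in Gr1+ cells and 1.69-fold higher in Ter119+ cells than in progenitors, with overlap, and neither call was kept with median scaling (adjusted p of 0.18 and 0.13). Slc15a3, Slc6a12, Slc37a2 and Slc2a6 were called higher in Ter119+ cells than in progenitors. All but Slc2a6 are members through Gr1+ and Ter119+ cells alone, so their rises over progenitors follow in part from the detection rule. No progenitor array detected Slc6a12, which was at least 1.64-fold higher in Ter119+ cells. Slc2a6, detected in both, had a log2 difference of 0.94 and was not called with median scaling (adjusted p = 0.13) or in the B6 arrays alone (0.064). The Ter119+ arrays carried granulocyte markers, and both the Gr1+ and the Ter119+ arrays carried monocyte and macrophage markers, at the list means given above. The part of these markers in the result was not tested. In sorted bulk samples, fewer cells of a type and less RNA per cell cannot be told apart.

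Among the remaining 10 transporters of organic ions and their relatives, Slc45a3, related to sucrose transporters, was highest in progenitors. It had 4.17 to 4.37 (median 4.25) in Gr1+ cells, 4.33 to 4.85 (median 4.39) in Ter119+ cells, 5.57 to 6.28 (median 5.80) in progenitors and 4.19 to 4.54 (median 4.31) in LSK cells. All 6 progenitor arrays detected it, against 1 array of the other 18, and progenitors were at least 1.89-fold above LSK cells and Gr1+ cells at least 1.85-fold below progenitors. Slc17a9, the vesicular nucleotide transporter, was 2.49-fold higher in Gr1+ cells than in progenitors (limma adjusted p = 1.35e-09), and its second probe gave 1.39. Slc22a5 (OCTN2), the carnitine transporter, was 1.95-fold lower in Gr1+ cells than in progenitors (adjusted p = 0.00253, 0.079 in the D2 arrays alone). Slc22a18 was 1.69-fold lower in progenitors than in LSK cells, a call lost with median scaling (adjusted p = 0.057) and in the D2 arrays alone (0.18).

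The carboxylate and fatty acid transporters held the member that was lowest in progenitors relative to LSK cells. Slc16a9 (MCT9), a carnitine and creatine transporter of the monocarboxylate family, had 4.37 to 5.06 (median 4.70) in progenitors, against 6.51 to 7.88 (median 7.09) in LSK cells. The groups did not overlap, and progenitors were 5.39-fold lower (-2.43 ± 0.18, limma adjusted p = 1.89e-10), and its second probe, detected on no progenitor array, was at least 1.51-fold lower. Slc16a10 (TAT1), which carries aromatic amino acids, was highest in Ter119+ cells, at 6.17 to 7.52 (median 6.67) against 5.10 to 5.82 (median 5.52) in progenitors (2.34-fold, adjusted p = 2.47e-06). Slc27a4 (FATP4), which promotes uptake of long-chain fatty acids, was detected on all Gr1+ arrays and on no progenitor or LSK array, with 5.96 to 6.66 (median 6.46) in Gr1+ cells against 4.34 to 4.80 (median 4.51) in progenitors. The difference was at least 2.84-fold. Slc10a3 was 1.93-fold lower in Ter119+ cells than in progenitors (adjusted p = 0.000278, 0.11 with median scaling), with overlap. Slc16a6 was 1.49-fold higher in Gr1+ cells, but its second probe gave -0.10 and was not called.

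Of 12 transporters of nucleosides, vitamins, choline, heme, folate and urea, 5 rose and 5 fell in Gr1+ cells against progenitors. In Ter119+ cells against progenitors 5 rose and 2 fell, and in progenitors against LSK cells 5 rose and 4 fell. Median scaling changed these counts to 0 and 4, 1 and 1, and 0 and 0. Slc19a1, the reduced folate carrier, had 5.07 to 5.43 (median 5.30) in Gr1+ cells, 5.33 to 6.59 (median 6.00) in Ter119+ cells, 8.08 to 8.87 (median 8.49) in progenitors and 7.22 to 8.00 (median 7.46) in LSK cells. Progenitors stood above every other array. Gr1+ cells were 9.17-fold lower (-3.20 ± 0.15, limma adjusted p = 6.49e-15) and Ter119+ cells 5.69-fold lower (-2.51 ± 0.15, adjusted p = 2.07e-12) than progenitors. Progenitors were 1.95-fold higher than LSK cells, a call lost with median scaling (adjusted p = 0.11).

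Slc29a1 (ENT1) and Slc29a3 (ENT3), both equilibrative nucleoside transporters, moved in opposite directions. Slc29a1, of the plasma membrane, had 5.49 to 5.82 (median 5.59) in Gr1+ cells against 7.05 to 8.08 (median 7.39) in progenitors, 3.69-fold lower (limma adjusted p = 2.1e-07). Slc29a3, of lysosomes, had 7.58 to 8.10 (median 7.89) in Gr1+ cells against 6.41 to 7.09 (median 6.68) in progenitors, 2.19-fold higher (adjusted p = 3.33e-07). Neither pair of groups overlapped, and with median scaling the rise of Slc29a3 was not called (adjusted p = 0.14). Between progenitors and LSK cells the directions were opposite again, at 1.20 for Slc29a1 and -0.65 for Slc29a3, and both calls were lost with median scaling (adjusted p of 0.078 and 0.75).

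Slc46a3, of lysosomes, had 7.46 to 9.97 (median 8.02) in Ter119+ cells against 6.34 to 7.07 (median 6.75) in progenitors, 2.91-fold higher without overlap (limma adjusted p = 3.0e-06). Slc48a1 (HRG1), which exports heme from lysosomes, had 8.04 to 8.83 (median 8.46) in Gr1+ cells against 9.07 to 9.84 (median 9.62) in progenitors, 2.09-fold lower (adjusted p = 1.03e-06, 0.078 with median scaling). Between Ter119+ cells and progenitors Slc48a1 had a log2 difference of 0.12 ± 0.15 and was not called. Its lower level in progenitors than in LSK cells, at -0.42 ± 0.15, reversed to 0.15 with median scaling and 0.13 with the 75th percentile. That call was also lost without B6 LSK replicate 1 (0.062), D2 LSK replicate 3 (0.066), B6 progenitor replicate 2 (0.052), or D2 progenitor replicate 1 (0.062) or 3 (0.061). Slc14a1, the urea transporter of the Kidd blood group, was detected on all Ter119+ and progenitor arrays and on no Gr1+ array, where it was at least 2.6-fold lower than in progenitors. Its Ter119+ levels, 5.80 to 6.91 (median 6.51), overlapped those of progenitors, 6.11 to 6.81 (median 6.24). Slc52a3, a riboflavin transporter, was 1.94-fold lower in progenitors than in LSK cells (adjusted p = 1.03e-05, 0.083 with median scaling). Slc44a2, a choline transporter-like protein that carries the neutrophil antigen HNA-3, was 2.07-fold higher in Gr1+ cells than in progenitors (adjusted p = 1.48e-07, 0.091 with median scaling).

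Of 15 metal transporters, 3 rose and 4 fell in Gr1+ cells and 5 rose and 7 fell in Ter119+ cells, each against progenitors. In progenitors against LSK cells 5 rose and 3 fell. Median scaling changed these counts to 2 and 2, 3 and 1, and 2 and 0. Slc11a2 (DMT1), the ferrous iron transporter, had 4.29 to 4.91 (median 4.62) in Gr1+ cells, 6.46 to 8.22 (median 7.16) in Ter119+ cells, 5.93 to 6.46 (median 6.38) in progenitors and 4.21 to 5.14 (median 4.97) in LSK cells. It was 2.76-fold higher in progenitors than in LSK cells (limma adjusted p = 4.45e-07) and 3.29-fold lower in Gr1+ cells than in progenitors (adjusted p = 6.94e-09), both without overlap. Its second probe, detected on no LSK and no Gr1+ array, gave at least 2.23-fold higher in progenitors than in LSK cells and at least 2.18-fold lower in Gr1+ cells than in progenitors. That probe passed through progenitors and Ter119+ cells alone, so both bounds follow in part from the detection rule. In Ter119+ cells the probes differed: the brighter gave 0.94 ± 0.18 against progenitors and was called (not in the D2 arrays alone, adjusted p = 0.066), the other gave -0.21 and was not.

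The zinc exporters of family 30 were called higher in Ter119+ cells than in progenitors for 4 of 6 members (Slc30a1, Slc30a5, Slc30a9 and Slc30a10) and lower for Slc30a7. Of all genes tested, 24% were called higher and 32.3% lower. Slc30a1, Slc30a9 and Slc30a10 are members through Ter119+ cells alone, so their calls follow in part from the detection rule. With median scaling Slc30a5, Slc30a9 and Slc30a7 were not called (adjusted p of 0.61, 0.19 and 0.21). Slc30a5 also lost its call without B6 progenitor replicate 1 (0.07), D2 progenitor replicate 1 (0.06), B6 Ter119+ replicate 2 (0.079) or D2 Ter119+ replicate 3 (0.056). Slc30a10, which exports manganese in human cells, was detected on all 6 Ter119+ arrays and on none of the other 18. It had 4.99 to 7.03 (median 5.90) in Ter119+ cells against 4.15 to 4.58 (median 4.35) in progenitors, a difference of at least 1.94-fold. Slc30a1, the zinc exporter of the plasma membrane, had 4.93 to 5.52 (median 5.13) in Ter119+ cells against 4.40 to 4.70 (median 4.48) in progenitors, 1.62-fold higher without overlap (limma adjusted p = 8.81e-05).

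Of 5 zinc importers of family 39, Slc39a4 and Slc39a11 were called higher in Gr1+ cells and lower in Ter119+ cells than in progenitors, Slc39a6 and Slc39a7 were called lower in both, and Slc39a13 in neither. With median scaling the calls of Slc39a11 and Slc39a7 in Gr1+ cells (adjusted p of 0.57 and 0.45) and of Slc39a6 and Slc39a7 in Ter119+ cells (0.12 and 0.4) were lost. The Gr1+ call of Slc39a7 was also lost without D2 progenitor replicate 2 (0.056). Slc39a4 (ZIP4) had 6.82 to 7.31 (median 7.15) in Gr1+ cells, 4.72 to 4.96 (median 4.89) in Ter119+ cells and 5.02 to 6.12 (median 5.48) in progenitors. It was 3.04-fold higher in Gr1+ cells (limma adjusted p = 1.65e-10) and 1.57-fold lower in Ter119+ cells (adjusted p = 0.000204, 0.14 with median scaling) than in progenitors, without overlap in either case. Slc39a11 (ZIP11) had 7.71 to 8.07 (median 7.89) in Gr1+ cells, 5.86 to 6.51 (median 6.16) in Ter119+ cells and 7.10 to 7.52 (median 7.35) in progenitors. It was 2.23-fold lower in Ter119+ cells than in progenitors (adjusted p = 3.51e-09, 0.084 with median scaling). Slc31a2, a copper transporter-like protein, was seen on all Gr1+ arrays and no progenitor array, with a difference of at least 1.8-fold. Slc41a3, a magnesium exporter of mitochondria, was 3.29-fold higher in progenitors than in LSK cells (adjusted p = 8.0e-08) and 2.21-fold lower in Ter119+ cells than in progenitors (adjusted p = 1.29e-05), and its second probe gave 1.43 and -0.45.

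Of the 22 mitochondrial carriers of family 25, 22.7% were called higher and 45.5% lower in Gr1+ cells and 9.09% higher and 50% lower in Ter119+ cells, each against progenitors. All genes tested also held more lower than higher calls, at 29.4% higher and 39.3% lower in Gr1+ cells. In Ter119+ cells these shares of all genes were 24% and 32.3%. By number, 5 rose and 10 fell in Gr1+ cells, 1 and 7 with median scaling and 2 and 10 with the 75th percentile, and 2 rose and 11 fell in Ter119+ cells, 1 and 2 with median scaling and 1 and 5 with the 75th percentile. The median log2 difference of the 22 was -0.38 in Gr1+ cells and -0.40 in Ter119+ cells, where all genes had -0.13 and -0.09. Slc25a1, the citrate carrier, had 5.75 to 6.38 (median 6.08) in Gr1+ cells, 6.23 to 6.89 (median 6.32) in Ter119+ cells and 7.21 to 7.84 (median 7.60) in progenitors. It was 2.8-fold lower in Gr1+ cells (limma adjusted p = 8.88e-10) and 2.23-fold lower in Ter119+ cells (adjusted p = 1.28e-07, 0.073 with median scaling), without overlap. Slc25a26, which imports S-adenosylmethionine, was 2.45-fold lower in Gr1+ cells and 2.35-fold lower in Ter119+ cells than in progenitors. Slc25a5, an ADP/ATP carrier, had 10.76 to 11.12 (median 10.94) in Gr1+ cells, 10.59 to 11.62 (median 10.91) in Ter119+ cells and 11.68 to 11.95 (median 11.83) in progenitors, with differences of -0.88 ± 0.13 and -0.87 ± 0.13 that were lost with median scaling (adjusted p of 0.074 and 0.11).

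Slc25a39 and Slc25a45 were called higher in one mature cell type each. Slc25a39, which imports glutathione into mitochondria, had 5.45 to 5.96 (median 5.82) in Gr1+ cells, 7.15 to 8.26 (median 7.59) in Ter119+ cells, 6.00 to 6.55 (median 6.20) in progenitors and 4.36 to 6.06 (median 5.78) in LSK cells. Every Ter119+ array lay above all others, 2.71-fold over progenitors (1.44 ± 0.22, limma adjusted p = 8.6e-06). Slc25a45 had 10.31 to 10.63 (median 10.50) in Gr1+ cells, 7.41 to 8.65 (median 8.47) in Ter119+ cells, 8.52 to 9.54 (median 9.13) in progenitors and 9.64 to 10.64 (median 10.41) in LSK cells. It was 2.59-fold higher in Gr1+ cells than in progenitors (adjusted p = 1.1e-06) and 2.36-fold lower in progenitors than in LSK cells (adjusted p = 1.82e-05). With median scaling these 2 calls were lost (adjusted p of 0.076 and 0.59). Slc25a3, the phosphate carrier, was 2.08-fold lower in Gr1+ cells and 1.87-fold lower in Ter119+ cells than in progenitors, and its second probe gave -1.03 and -0.45. The groups overlapped, and the Ter119+ call was lost with the median (0.14) and the 75th percentile scaling (0.051).

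**Figure D4:**
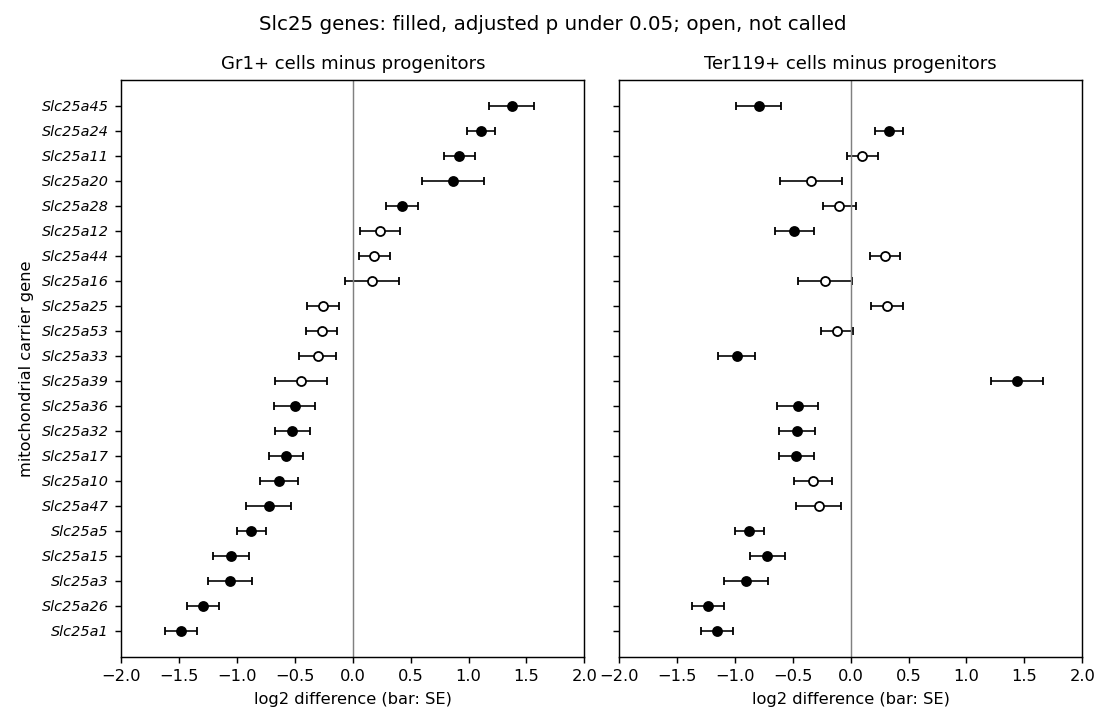
Log2 difference of each of the 22 mitochondrial carrier genes in Gr1+ cells (left) and Ter119+ cells (right), each minus the same progenitors, with its SE (6 arrays per cell type); filled points have an adjusted p under 0.05. Most filled points lie below 0 on both sides, and Slc25a39 stands at 1.44 in Ter119+ cells. No Gr1+ array detected Slc25a15 or Slc25a32, so their Gr1+ points are set against a level not above background.

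Of 15 transporters of nucleotide sugars and related substrates of the Golgi and endoplasmic reticulum (family 35), 5 rose and 4 fell in Gr1+ cells against progenitors, and none rose and 6 fell in Ter119+ cells. With the other scalings fewer fell in Ter119+ cells, 0 with the median and 1 with the 75th percentile, and none rose. Slc35e1 had 8.27 to 8.88 (median 8.56) in Gr1+ cells against 6.26 to 7.08 (median 6.79) in progenitors, 3.46-fold higher without overlap (limma adjusted p = 2.95e-11). Slc35d2 was seen on all Gr1+ arrays and no progenitor array, a difference of at least 1.69-fold. Slc35c2 was 1.8-fold higher in Gr1+ cells, and its other probes gave 0.68 and 0.74. That call was lost with median scaling (adjusted p = 0.18). Slc35a4 was 1.85-fold lower in Gr1+ cells (adjusted p = 1.12e-06). Slc35b2, which brings the sulfate donor PAPS into the Golgi, had 7.50 to 9.50 (median 9.21) in Ter119+ cells against 9.88 to 10.30 (median 10.01) in progenitors, 2.14-fold lower (adjusted p = 0.00011). That call was lost with the median (adjusted p = 0.2) and the 75th percentile scaling (0.11), and its lowest array was B6 Ter119+ replicate 2. Slc35c1, the GDP-fucose transporter, was 2.4-fold higher in Gr1+ than in Ter119+ cells (adjusted p = 1.5e-05, 0.13 with the median and 0.056 with the 75th percentile scaling). Between progenitors and LSK cells 5 of the family rose and 3 fell, with Slc35b1 at 0.83 ± 0.22 and Slc35b3 at -0.68 ± 0.15. Neither was called with the median (0.19 and 0.86) or the 75th percentile scaling (0.074 and 0.78). Slc35d3, which was detected on 3 of 6 LSK arrays and on no progenitor array, was at least 1.31-fold lower in progenitors, a call not kept in the D2 arrays alone (adjusted p = 0.25).

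Of 10 ion transporters, 4 rose and 4 fell in Gr1+ cells and 1 rose and 4 fell in Ter119+ cells, each against progenitors. In progenitors against LSK cells 3 rose and 3 fell. Median scaling changed these counts to 2 and 4, 0 and 1, and 1 and 1. Slc8b1 (NCLX), which exports calcium from mitochondria in exchange for sodium, had 10.10 to 10.39 (median 10.32) in Gr1+ cells, 7.11 to 8.73 (median 8.40) in Ter119+ cells, 7.66 to 8.62 (median 8.35) in progenitors and 7.61 to 8.29 (median 7.97) in LSK cells. Gr1+ cells stood above every other array, 3.93-fold over progenitors (1.98 ± 0.19, limma adjusted p = 2.93e-09). Slc12a2 (NKCC1), the sodium, potassium and chloride cotransporter, had 5.12 to 5.70 (median 5.30) in Gr1+ cells against 7.10 to 8.22 (median 7.59) in progenitors, 4.74-fold lower, and at least 1.66-fold lower by its second probe, which no Gr1+ array detected. Slc12a9, of the same family, had 6.75 to 7.18 (median 6.93) in Gr1+ cells against 4.60 to 5.65 (median 5.14) in progenitors and was 3.45-fold higher, so that these paralogs moved apart without overlap.

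Another such pair were the bicarbonate transporters of family 4. Slc4a2 (AE2), the chloride and bicarbonate exchanger of most cells, had 8.22 to 8.75 (median 8.56) in Gr1+ cells against 6.90 to 7.94 (median 7.29) in progenitors, 2.19-fold higher (limma adjusted p = 1.84e-07, 0.066 with median scaling). Slc4a8, the sodium-driven chloride and bicarbonate exchanger, had 5.90 to 6.60 (median 6.50) in Gr1+ cells, 5.35 to 6.53 (median 6.17) in Ter119+ cells, 7.85 to 8.80 (median 8.38) in progenitors and 6.77 to 7.48 (median 7.15) in LSK cells. Progenitors held its highest levels, with Gr1+ cells 3.85-fold and Ter119+ cells 4.84-fold lower, and the second probe gave -0.89 and -0.95. Slc9b2, a sodium and proton exchanger, was detected on 5 of 6 LSK arrays and on none of the other 18. Slc12a3, the thiazide-sensitive cotransporter, had probes in opposite directions for Ter119+ cells against progenitors, with a log2 difference of -0.59 for the brightest and levels at least 3.32 and 2.02-fold higher in Ter119+ cells for the others, which no progenitor array detected, and no direction is drawn from it.

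The remaining 4 member genes lie outside these classes. Both Slc66 genes, of the PQ-loop family, rose in both mature cell types. Slc66a1, a lysosomal exporter of cationic amino acids, rose by 1.98-fold in Gr1+ and 1.71-fold in Ter119+ cells, and Slc66a2 by 2.42-fold and 2.51-fold. With median scaling none of these 4 calls was kept (adjusted p of 0.065, 0.074, 0.066 and 0.087). Slc9a3r1 and Slc9a3r2 carry the Slc name but are scaffold proteins (NHERF1 and NHERF2) that bind the exchanger Slc9a3. Slc9a3r1 had 8.44 to 8.84 (median 8.61) in Gr1+ cells against 6.60 to 7.31 (median 7.18) in progenitors, 3.01-fold higher without overlap (limma adjusted p = 3.61e-08).

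Transport genes with other names were set beside the members, and 21 of the 41 listed were measured. Of these, 4 rose and 7 fell in Gr1+ cells and 5 rose and 9 fell in Ter119+ cells against progenitors, and 7 rose and 4 fell in progenitors against LSK cells. Aqp1, a water channel of red cells, had the largest differences, -5.61 ± 0.23 in Gr1+ cells against progenitors and 4.83 ± 0.23 in progenitors against LSK cells. Atp1b1, a beta subunit of the sodium pump, had the largest rise in Ter119+ cells, 3.66 ± 0.16 against progenitors. Emb, a partner subunit of monocarboxylate transporters, was 1.96-fold higher in Gr1+ cells (adjusted p = 3.62e-05, 0.08 with median scaling) and 3.01-fold lower in Ter119+ cells than in progenitors.

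Between the strains far fewer members were called. In Gr1+ cells 4 were higher and 2 lower in D2 (4.88% of the members, against 5.67% of all genes, 2.33% higher and 3.33% lower), in Ter119+ cells 11 were higher and 12 lower (18.7% against 17.1%, 8.13% higher and 8.93% lower), in progenitors 2 were higher and 4 lower (4.88% against 5.59%, 2.37% higher and 3.22% lower), and in LSK cells 2 were higher and 2 lower (3.25% against 8.34%, 2.85% higher and 5.49% lower). The strain difference itself varied between the cell types for 5 of the 123 members, where 5.78% of all genes were called. These splits depend on the scaling. With the 75th percentile, 2 higher and 0 lower were called in Gr1+ cells, 0 and 8 in Ter119+ cells, 0 and 2 in progenitors, and 0 and 1 in LSK cells, and with the median 2 and 0, 0 and 2, 0 and 1, and 0 and 1. Single arrays moved these counts. In Ter119+ cells 23 genes were called with all arrays, 7 without D2 replicate 3, 9 without B6 replicate 2 and 10 without D2 replicate 2. In progenitors 6 were called with all arrays, 2 without B6 replicate 1 and 3 without B6 replicate 3 or D2 replicate 3. In LSK cells 4 were called with all arrays, 1 without B6 replicate 3, 2 without B6 replicate 1 or 2, 9 without D2 replicate 1 and 10 without D2 replicate 3. The 5 varying strain differences became 10 without D2 LSK replicate 2, 9 without B6 Ter119+ replicate 1, and 8 without D2 progenitor replicate 1 or D2 Ter119+ replicate 1. Of the 28 strain calls with the largest differences in each cell type, 11 were kept whichever array was left out and 17 were lost without at least 1 array. The granulocyte marker list had a mean of 9.98 to 10.2 in D2 and 9.65 to 9.83 in B6 Ter119+ cells, and 7.81 to 9.47 in D2 and 7.22 to 7.40 in B6 progenitors. Its part in the strain differences was not tested.

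Slc22a4 (OCTN1), which carries ergothioneine and carnitine, had the largest strain difference in Ter119+ cells. Its levels were 4.22, 4.36 and 4.25 in D2 Ter119+ cells, against 6.77, 6.62 and 7.30 in B6 Ter119+ cells. No D2 array detected it and all 3 B6 arrays did, so D2 was at least 4.19-fold lower (n = 3 arrays each, limma adjusted p = 5.21e-11). In progenitors the levels were 4.31, 4.23 and 4.30 in D2 and 5.18, 5.09 and 5.20 in B6, at least 1.09-fold lower in D2 (adjusted p = 0.00114), a call lost with the median (0.25) and 75th percentile scaling (0.079). In LSK cells no array of either strain detected it. The strain difference varied between cell types with an adjusted p of 4.05e-07. No D2 array of any cell type detected Slc22a4. It became a member through B6 Ter119+ cells and B6 progenitors alone, the groups that are higher here. Its strain calls are therefore no result independent of the detection rule.

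Slc9a3r2 had the largest strain difference in Gr1+ cells. Its levels were 8.40, 8.64 and 8.86 in D2 Gr1+ cells, against 4.71, 4.85 and 4.85 in B6 Gr1+ cells, without overlap. D2 was 14.2-fold higher (3.83 ± 0.33, limma adjusted p = 5.27e-09). Only 1 of the 3 B6 Gr1+ arrays detected it, so this fold is set against a level near the detection limit. In Ter119+ cells D2 was 1.95-fold higher with an adjusted p of 0.0437, a call that was lost without any 1 of the 6 arrays (adjusted p between 0.051 and 0.15). The interaction of strain and cell type had an adjusted p of 2.11e-05, and the rise of Slc9a3r2 in Gr1+ cells against progenitors was not called in the B6 arrays alone (adjusted p = 0.43).

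Slc7a7 (y+LAT1), which exchanges cationic for neutral amino acids, had 6.06, 6.46 and 6.22 in D2 Gr1+ cells, against 4.96, 4.77 and 5.04 in B6 Gr1+ cells. D2 was 2.5-fold higher without overlap (1.32 ± 0.19, limma adjusted p = 2.73e-05), and its second probe, detected on no B6 Gr1+ array, was at least 1.89-fold higher in D2. Slc32a1 had 5.90, 5.40 and 5.79 in D2 Gr1+ cells and 5.12, 4.94 and 5.05 in B6 Gr1+ cells, 1.58-fold higher in D2 (adjusted p = 0.00364). Slc28a2b, whose symbol places it beside the nucleoside transporter Slc28a2, had 5.48, 5.33 and 5.09 in D2 Gr1+ cells and 4.66, 4.49 and 4.64 in B6 Gr1+ cells, where no array detected it, at least 1.3-fold higher in D2 (adjusted p = 0.00285). Slc7a7 and Slc32a1 became members through D2 Gr1+ cells alone, the group that is higher here, so their calls are no result independent of the detection rule. The calls of Slc32a1 and Slc28a2b were lost with the median (adjusted p of 0.83 and 0.94) and the 75th percentile scaling (0.47 and 0.19).

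Slc44a1, a choline transporter, was called lower in D2 Gr1+ cells and higher in D2 Ter119+ cells. In Gr1+ cells it had 6.62, 6.41 and 6.48 in D2 and 7.14, 7.36 and 7.52 in B6, 1.79-fold lower in D2 (limma adjusted p = 0.00497). In Ter119+ cells it had 7.83, 7.54 and 7.48 in D2 and 6.99, 7.10 and 7.09 in B6, 1.47-fold higher in D2 (adjusted p = 0.0431). The strains did not overlap in either cell type. The Ter119+ call was lost without any 1 of the 6 arrays (adjusted p between 0.068 without D2 replicate 3 and 0.14 without D2 replicate 1), and its sign turned to -0.05 with median scaling. The Gr1+ call was lost with the median (0.99994) and the 75th percentile scaling (0.66), and the difference between cell types, at an adjusted p of 0.00243, became 0.967 and 0.955 with these scalings.

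Slc19a2, the thiamine transporter THTR1, was called lower in D2 in progenitors, LSK cells and Ter119+ cells. It became a member through the B6 groups of these cell types alone, the groups that are higher here. Its calls are therefore not independent of the detection rule. In Gr1+ cells it had 4.54, 4.40 and 4.51 in D2, where no array detected it, and 5.61, 4.83 and 5.66 in B6. D2 was thus lower there too, without overlap, but was not called. In progenitors its levels were 5.61, 5.22 and 4.86 in D2 and 6.88, 6.95 and 6.94 in B6, 3.23-fold lower in D2 (limma adjusted p = 0.000114). The differences were -0.99 ± 0.27 in Ter119+ cells and -0.96 ± 0.27 in LSK cells. The Ter119+ call was lost without B6 replicate 1 (adjusted p = 0.073) or D2 replicate 3 (0.08), and the LSK call without any of 5 of the 6 arrays (0.053 to 0.12). A varying strain difference was not called for Slc19a2 (adjusted p = 0.47). Slc7a8 (LAT2), a neutral amino acid exchanger, had 6.38, 6.35 and 6.22 in D2 LSK cells, against 4.99, 4.64 and 5.12 in B6 LSK cells, 2.64-fold higher in D2 without overlap (adjusted p = 0.000234, 0.32 with the median and 0.18 with the 75th percentile scaling).

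**Figure D5:**
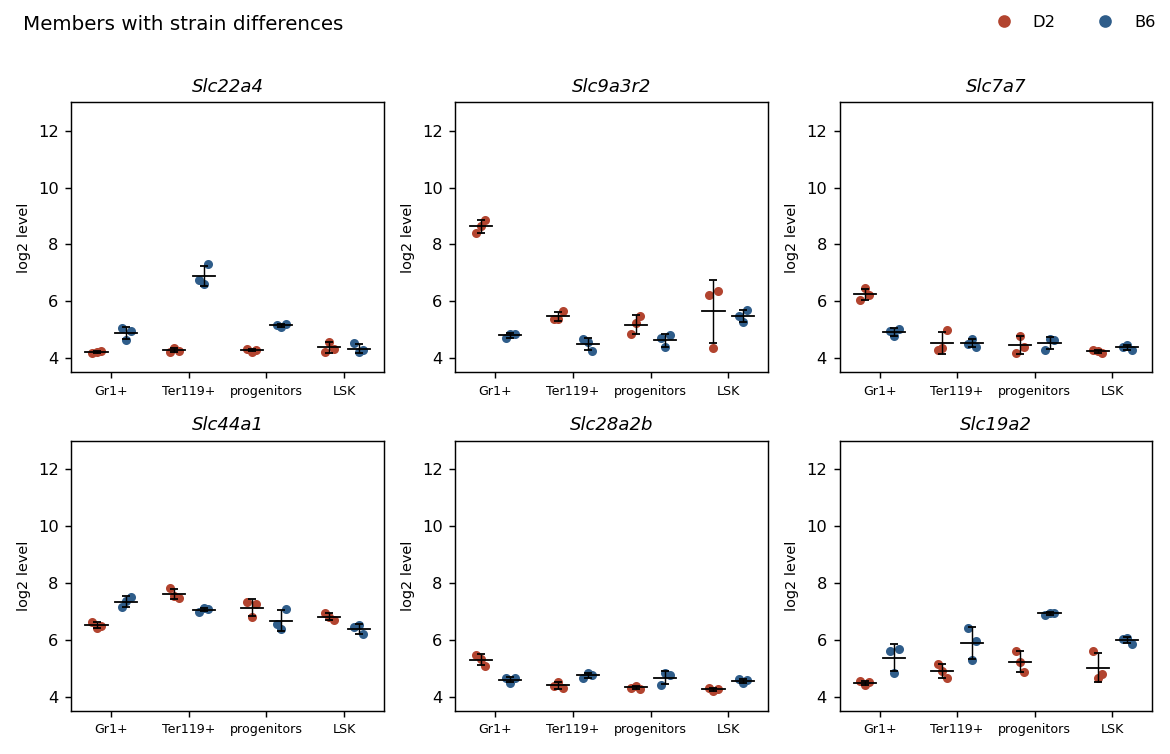
Log2 levels of 6 member genes on each array, with D2 in red and left of B6 in blue, from left to right Gr1+ cells, Ter119+ cells, progenitors and LSK cells; bars are the mean and SD of 3 arrays. Slc22a4 is highest in B6 Ter119+ cells, Slc9a3r2 is highest in D2 Gr1+ cells, and Slc19a2 is lower in D2 than in B6 progenitors.

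In Ter119+ cells, Slc46a3 had 7.58, 7.47 and 7.46 in D2 and 8.63, 9.97 and 8.47 in B6, 2.87-fold lower in D2 (limma adjusted p = 0.00152, 0.055 with median scaling). Slc66a1 had 6.23, 6.32 and 6.51 in D2 and 5.76, 5.14 and 5.26 in B6, 1.96-fold higher in D2 (adjusted p = 0.00321, 0.64 with the median and 0.23 with the 75th percentile scaling). Neither pair of groups overlapped. Slc29a1 had 7.26, 6.60 and 6.81 in D2 and 7.76, 8.89 and 8.10 in B6, 2.56-fold lower in D2 (adjusted p = 0.00701), which was not kept without B6 replicate 2 (0.065) or with median scaling (0.11). Slc25a3 was 1.88-fold higher in D2 Ter119+ cells, 1.87-fold in D2 progenitors and 1.86-fold in D2 LSK cells by its brighter probe, but its second probe gave -0.96, -0.01 and 0.34 with no call. Each of these 3 calls was lost without at least 1 array, and in LSK cells the sign turned, to -0.47 with the median and -0.23 with the 75th percentile scaling. The probe sequences were not compared between the strains here.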

How the data were processed

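Total RNA (100 ng per sample) was labelled with biotin and hybridised to Illumina mouse bead arrays. The deposited raw column holds each probe's intensity, not normalised, and the submitters' processing notes name GenomeStudio. Each probe's detection column, per the file headers a p-value, is by its values a deposited fraction equal to 1 minus the detection p. The authors' series matrix holds log2 intensities that match quantile normalisation of the raw values without background correction (largest difference 0.00113), and served as an alternative.

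Background was corrected with limma 3.58.1 in R 4.3.3 by normexp, with an offset of 16 and control statistics inferred from detection, and arrays were then quantile-normalised and log2-transformed. Probes with detection p under 0.01 on all 3 arrays of a group were kept (12668, 11034 with 1 gene symbol), and each gene was represented by its brightest probe on average, giving 7925 genes. All 161 member probes matched the RefSeq gene table: 91 genes had 1 member probe, 26 had 2 and 6 had 3. One limma model with 8 group means (16 residual degrees of freedom) gave all contrasts, cell type contrasts averaged over strains, and Benjamini-Hochberg adjustment ran over all 7925 genes (threshold 0.05). A fold against a group with no detected array is a lower bound against the lowest detected signal. Number of arrays limits the precision. Figures used Python 3.11.15, numpy 2.4.6 and matplotlib 3.10.9.

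Members, classes and lists were chosen with earlier results of these data known. Named genes are, per comparison, the 8 called members with the highest and the 8 with the lowest difference between cell types, the 6 each way between strains, those with a varying strain difference, and per class the largest change each way, well-known members and paralogs called in opposite directions; a few further members were named after their values were seen. The alternatives were no background correction, median and 75th percentile scaling, the series matrix, other detection filters, other probe rules, a replicate block, array weights, fits of fewer groups or 1 strain, and leaving out each array; leaving out those 3 arrays that correlated least within their group (D2 LSK replicate 2, D2 progenitor replicate 1, B6 Ter119+ replicate 2) was added after seeing the data.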

Additional observations from a re-analysis of the deposited data

Results flagged for a closer look

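For 5 members the strain difference was not the same in the 4 cell types by a test of the difference itself, an F test of the interaction of strain and cell type in limma with adjustment over all 7925 genes. Slc22a4 had an adjusted p of 4.05e-07. No D2 array of any cell type detected it, so each strain difference sets the B6 level against one not above background. It is a member through B6 Ter119+ cells and B6 progenitors alone, so this test is not independent of the detection rule. D2 was at least 4.19-fold lower than B6 in Ter119+ cells and at least 1.09-fold lower in progenitors, no bound above 1 could be given in Gr1+ cells, and in LSK cells neither strain was detected. Slc9a3r2 had an adjusted p of 2.11e-05. D2 minus B6 was 3.83 in Gr1+ cells, where 1 of 3 B6 arrays detected it. It was 0.97 in Ter119+ cells, 0.55 in progenitors and 0.15 in LSK cells. For both genes the test stayed under 0.05 in all alternatives run, with a highest adjusted p of 0.00889 and 0.00717.

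Slc7a7 had an adjusted p of 0.0017, with D2 minus B6 at 1.32 in Gr1+ cells. It is a member through D2 Gr1+ cells alone, and outside Gr1+ cells at most 1 of 3 arrays of a group detected it. Slc44a1 had 0.00243, with -0.84 in Gr1+ cells and 0.56 in Ter119+ cells. Slc28a2b had 0.00255, at least 1.3-fold higher in D2 than in B6 Gr1+ cells, where no B6 array detected it. In Ter119+ cells no D2 and 3 B6 arrays detected it, and no bound above 1 could be given. Slc28a2b is a member through B6 Ter119+ cells alone, so its test is not independent of the detection rule. For these 3 genes the test lost its call with the median scaling (adjusted p of 0.522, 0.967 and 0.81) and the 75th percentile scaling (0.245, 0.955 and 0.288).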

How the results depend on the processing

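Scaling each array to its median or 75th percentile in place of quantile normalisation lowered most counts of calls. It moved the median of all genes for D2 minus B6 to -0.91 and -0.67 in LSK cells, -0.45 and -0.38 in progenitors, -0.41 and -0.22 in Ter119+ cells, and -0.10 and -0.06 in Gr1+ cells, against -0.06 to 0.00 with quantile normalisation, and for Gr1+ cells minus progenitors to -0.29 and -0.20 and for progenitors minus LSK cells to 0.21 and 0.19. Members called with the median were 1 in LSK cells, 1 in progenitors, 2 in Gr1+ cells and 2 in Ter119+ cells between strains, 12 for progenitors against LSK cells, 46 for Gr1+ cells and 26 for Ter119+ cells against progenitors, 39 for Gr1+ against Ter119+ cells, and 2 for the varying strain difference. With the 75th percentile they were 1, 2, 2 and 8 between strains, 28 for progenitors against LSK cells, 44 for Ter119+ cells against progenitors and 2 for the varying strain difference. Array weights gave 11, 10, 16 and 52 in LSK cells, progenitors, Gr1+ and Ter119+ cells between strains, against 4, 6, 6 and 23, and 40 against 5 varying strain differences. Without a detection filter, 1 in LSK and 12 in Ter119+ cells were called between strains. The mean of a gene's probes gave 10 in Gr1+ cells, and fits of the compared groups alone gave 1 in LSK cells, 14 in Gr1+ cells and 4 in Ter119+ cells. The D2 arrays alone gave 33 for progenitors against LSK cells, against 66 with both strains. Leaving out the 3 arrays that stood apart (chosen after seeing the data) gave 9 in LSK cells and 14 in Gr1+ cells between strains, 14 varying strain differences, and 84, 75, 75 and 82 calls for Gr1+ and Ter119+ cells against progenitors, progenitors against LSK cells and Gr1+ against Ter119+ cells. Leaving out 1 array gave 1 to 10 calls in LSK cells, 2 to 5 in progenitors, 5 to 7 in Gr1+ cells and 7 to 24 in Ter119+ cells, and 5 to 10 varying strain differences. The main model did not take the replicate numbers to pair the samples. Correlations of same-numbered arrays of different groups ran from -0.389 to 0.369, with 36 of 84 over 0.1 (median 0.08). For arrays of other numbers 33 of 168 were over 0.1 (median -0.03). Same-numbered arrays were thus slightly more alike, and the reason was not tested. The replicate block gave 5, 6, 7 and 24 strain calls, 66, 80, 71 and 76 cell type calls and 5 varying strain differences; 13 of 24 arrays correlated best with their own number. Directions turned for Slc25a3 between strains in LSK cells (-0.467 with the median, -0.232 with the 75th percentile) and Ter119+ cells (-0.0233 with the mean of its probes), for Slc44a1 between strains in Ter119+ cells (-0.047 with the median), for Slc12a3 in Ter119+ cells against progenitors (1.08 with the mean of its probes), for Slc48a1 in progenitors against LSK cells (0.148 and 0.13), and in the D2 arrays alone, none of which detected it, for Slc22a4 in progenitors against LSK cells (-0.099) and Ter119+ cells against progenitors (-0.00209). The cause was not tested. Of 204 named results for single genes, 88 kept their call in every alternative and 116 lost it in at least 1, with 4729 of 5112 single alternatives keeping it.

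Number of arrays and signal over background limit low genes: 29 members were detected on all 6 arrays of no cell type. Other probes of called members, tested over all kept probes, were called in the same direction for 19 of 28 in Gr1+ cells against progenitors, 12 of 23 in Ter119+ cells against progenitors (2 opposite, both of Slc12a3), 8 of 18 in progenitors against LSK cells and 24 of 30 in Gr1+ against Ter119+ cells (1 opposite, of Slc38a2).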
